A study of Rattus norvegicus with 6 samples.

Results

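The long tags without a CCA end were the subject of this comparison of rat liver small RNA. A tag is 1 distinct read sequence with its count of reads. Members were all tags of 26 to 30 nt that did not end in CCA, that had 30 or more reads summed over the 6 libraries, and that did not begin with the first 18 bases of cytosolic tRNA Gly-GCC, Glu-CTC, Lys-CTT, Val, His or Asp. Of 1528721 different tags in the 6 libraries, 219108 had 26 to 30 nt, and 3657 of these were members. They fell into 1782 groups that share their first 18 bases. Joined wherever they shared a run of 16 bases, the members formed 318 stretches. Of the other tags of 26 to 30 nt, 11502 ended in CCA, 203795 stayed under the read minimum, and 17 had enough reads but an excluded tRNA start.

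The libraries came from the livers of 3 Wistar rats with NAFLD, nonalcoholic fatty liver disease, and of 3 normal Wistar rats, with 1 library per rat. The NAFLD rats had fasted for 48 h and then ate a diet with 80% starch for 7 days, whereas the normal rats ate a standard diet with 35% starch. The males were 28 weeks old by the methods and 4 months old by the labels. Livers of the NAFLD group were picked among those high in hepatic triglycerides and normal livers at random, and the effects of fast and diet cannot be told apart.

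Most small RNA of a liver is miRNA, which Dicer cuts to a length well below that of the members. Ribosomal RNA, tRNA and Y RNA are longer transcripts whose fragments also enter small RNA libraries, either as pieces cut by nucleases in the cell or as breakdown products. A mature tRNA ends in CCA, which is added after transcription, so a rule against that ending keeps 5′ and internal tRNA fragments and few 3′ fragments. The 5.8S, 18S and 28S rRNA are cut from 1 precursor, while 5S rRNA is a separate transcript.

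Leading sequences of the parent RNAs described below are shown first, as DNA letters of the reads, 5′ to 3′. Each is the tag with most reads in its group. Capitals mark the first 18 bases, by which the group was formed.
5.8S rRNA 1: GGGGCTACGCCTGTCTGAgcgtcgct
5.8S rRNA 2: CGACTCTTAGCGGTGGATcactcggc
18S rRNA 1: GTAGGTGAACCTGCGGAAggatcatta
18S rRNA 3: GCAGTTAAAAAGCTCGTAgttggatc
28S rRNA 1: AGGTGTAGAATAAGTGGGaggccccc
28S rRNA 2: GAGGTGTAGAATAAGTGGgaggcccc
28S rRNA 4: GCGGCGGCGACTCTGGACgcgagccg
5S rRNA 1: CTGGGAATACCGGGTGCTgtaggctt
cytosolic tRNA 2: GGGGATGTAGCTCAGTGGtagagcgcg
Y RNA 1: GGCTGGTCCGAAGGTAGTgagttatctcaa
unassigned 1: TTACTTGATGAAAGTAAAagatctgatg
Parent RNAs were recognised from 9-base anchors of well-known RNA sequences, and a whole stretch took the class of its leading tag. No rRNA, tRNA or genome sequence was used to name the parents, so base positions and coordinates are not given. Where an end of a parent is named it was recognised from general knowledge of that RNA.

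Tags that begin as a miRNA are shown with capitals for the bases past the last base that matches the miRNA's hairpin, or, for let-7b-5p, past its mature sequence.
miR-122-5p long tag: tggagtgtgacaatggtgtttgtTTT
let-7b-5p long tag: tgaggtagtaggttgtgtggttTTTT
let-7c-5p long tag: tgaggtagtaggttgtatggttttTT
miR-192-5p long tag: ctgacctatgaattgacagccaTTTT
miR-191a-5p long tag: caacggaatcccaaaagcagctgtAT
miR-451-5p long tag: aaaccgttaccattactgagtttagt
The mature sequences of RefSeq (GRCr8) are given for comparison, with the seed, bases 2 to 8, in capitals.
miR-122-5p: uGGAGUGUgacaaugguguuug
let-7b-5p: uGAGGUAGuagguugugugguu
let-7c-5p: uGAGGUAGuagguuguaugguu
miR-192-5p: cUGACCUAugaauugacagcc
miR-191a-5p: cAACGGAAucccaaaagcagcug
Both let-7 forms carry the same seed, and the other 3 differ from it and from each other.

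Clean reads numbered 11601058, 11759006 and 11813490 in NAFLD 1, 2 and 3 and 11853876, 11870661 and 11880695 in normal 1, 2 and 3. Tags that begin with the first 18 bases of miR-122-5p, the miRNA typical of hepatocytes, took 44.5% to 46.5% of all clean reads in NAFLD and 56.1% to 59.6% in normal libraries. The libraries stood apart from each other in 2 further respects. The median share of reads with a substitution at base 4 of 50 abundant tags was 2.70% to 2.96% in NAFLD 2, NAFLD 3 and normal 2, and at most 0.0648% in NAFLD 1, normal 1 and normal 3. These are called the high and the low substitution set below. Normal 2 also held more long reads than the other normal libraries. Reads of 26 to 30 nt were 3.38%, 2.80% and 3.28% of the total in NAFLD and 0.625%, 1.54% and 0.632% in normal libraries.

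The members took a larger share of the clean reads in every NAFLD library than in any normal library. Their share was 1.82%, 1.53% and 1.70% in NAFLD 1, 2 and 3 and 0.469%, 0.974% and 0.444% in normal 1, 2 and 3. The means were 1.68% ± 0.147 (SD, n = 3) and 0.629% ± 0.299 (SD, n = 3), a 2.67-fold ratio, and the groups did not overlap (exact permutation test, two-sided, p = 0.1, which is the lowest value possible with 3 libraries a group). Within the high substitution set the ratio was 1.66-fold and within the low set 3.99-fold, and without normal 2 it was 3.68-fold. In bulk liver, more cells that hold an RNA and more of it per cell cannot be told apart.

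Among reads of 26 to 30 nt alone the order was the opposite. Members made up 54.0%, 54.7% and 51.7% of these reads in NAFLD and 75.1%, 63.4% and 70.2% in normal libraries, again with no overlap (difference of means -16.1 percentage points, exact permutation test, p = 0.1). The tags with a CCA end took 25.96%, 18.1% and 18.8% of these reads in NAFLD and 3.86%, 8.01% and 4.57% in normal libraries. Among reads of 26 to 30 nt without a CCA end, the members' share overlapped between the groups, at 63.6% to 72.9% in NAFLD and 69.0% to 78.1% in normal libraries (exact permutation test, p = 0.2). Reads of tags below the read minimum took 19.2% to 29.2% and 20.5% to 28.2%.

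The reads were concentrated in few groups. The 20 groups with the highest mean level held 35.4% of the 815509 member reads, and 54 groups held the upper 50% of them. Of the 1782 groups, 867 were a single tag, 883 had 2 to 5 tags and 32 had more, up to 86 tags that share the start of miR-122-5p. At the edge of the rule, the 176 members with 30 or 31 reads had 4139 reads in NAFLD and 1217 in normal libraries, and the 207 tags with 28 or 29 reads that were left out had 4584 and 1325.

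Ribosomal RNA was the main parent. 28S rRNA, the large RNA of the large ribosomal subunit, gave 1637 tags in 798 groups with 43.9% of member reads. 18S rRNA, the RNA of the small subunit, gave 706 tags in 387 groups with 18.2% of the reads. 5.8S rRNA, which pairs with 28S rRNA, gave 120 tags in 56 groups with 6.94%, and 5S rRNA gave 56 tags in 25 groups with 0.854%. Tags with a miRNA start were 363 in 50 groups, with 16.9% of the reads. Cytosolic tRNA gave 165 tags in 71 groups with 4.41%. Y RNA, a small RNA bound by Ro60, gave 2 tags with 0.0207%. A further 15 tags were 1 substitution away from an excluded tRNA start, with 0.184%. A set of 575 tags in 375 groups, with 8.35% of the reads, are called unassigned. The word means only that no anchor and no miRNA of the table used matched them, so tags of known RNAs, miRNAs included, can be among them.

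Member level is given as TPM, the count divided by the clean reads of the library, times 1000000. 28S rRNA tags summed to 7861, 7289 and 7112 TPM in NAFLD and 2231, 4272 and 1709.7 TPM in normal libraries, a 2.71-fold ratio. 18S rRNA tags summed to 3464, 3058 and 2687 TPM and 1068, 1577 and 780.4 TPM, a 2.69-fold ratio. 5.8S rRNA tags summed to 1698, 1255 and 1046 TPM and 167.5, 495.8 and 158.7 TPM, a 4.86-fold ratio. In each of these 3 classes all NAFLD libraries stood above all normal libraries, and normal 2 was the highest normal library.

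5S rRNA tags were 2.78-fold higher, at 128.3 to 156.3 TPM in NAFLD and 30.7 to 88.7 TPM in normal libraries. Unassigned tags were 3.73-fold higher, at 1294 to 1735 TPM and 229.4 to 699.0 TPM. Neither class overlapped between the groups. For each of these classes without overlap the exact permutation p was 0.1, and 0.167 after Benjamini-Hochberg adjustment over the 10 classes.

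Cytosolic tRNA tags had 1294, 329.4 and 921.7 TPM in NAFLD and 79.2, 356.8 and 85.3 TPM in normal libraries, a 4.88-fold ratio with overlap between NAFLD 2 and normal 2 (exact permutation test, p = 0.2, adjusted p = 0.222). Tags with a miRNA start had 1910, 1898 and 3422 TPM and 872.5, 2226 and 1362 TPM, a 1.62-fold ratio with overlap (exact permutation test, p = 0.3, adjusted p = 0.3). The 2 Y RNA tags lay between 0.506 and 7.20 TPM and overlapped as well. The tRNA ratio depended most on the library set, at 1.75-fold within the high set and 15.7-fold within the low set. For 28S rRNA the same ratios were 1.69-fold and 3.99-fold, and for 5.8S rRNA 2.32-fold and 10.4-fold.

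Relative to all member reads, 5.8S rRNA and unassigned tags had larger shares in every NAFLD library than in any normal library. 5.8S rRNA took 9.32%, 8.21% and 6.16% of member reads in NAFLD and 3.57%, 5.09% and 3.58% in normal libraries. Unassigned tags took 8.47% to 9.52% and 4.89% to 7.17%. Tags with a miRNA start took 10.5%, 12.4% and 20.2% in NAFLD and 18.6%, 22.8% and 30.7% in normal libraries, which overlap. The share of 28S rRNA was 44.3% ± 3.04 (SD, n = 3) in NAFLD and 43.3% ± 4.55 (SD, n = 3) in normal libraries. With 3 libraries a group the exact permutation p cannot go below 0.1, so no share could pass a threshold of 0.05. The adjusted exact permutation p was 0.4 for 5.8S rRNA, unassigned and miRNA tags and 0.9 for 28S and 18S rRNA.

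G was the most used first base. Of the member tags, 34.4% began with G, 24.8% with C, 22.1% with T and 18.7% with A, beside 31.3%, 22.03%, 20.8% and 25.9% of all tags of 26 to 30 nt. By reads, G had 36.8%, T 28.8%, C 19.3% and A 15.1%. The miRNA starts began with T for 82.7% of their reads. Without them, 44.3% of member reads began with G and 17.9% with T. In contrast, tags of 20 to 24 nt with 30 or more reads, where miRNAs lie, began with T for 90.4% of their reads. By tag, T began 35.3% and G 24.8% of them. The miR-122-5p start, which begins with T, had 36769699 reads over all lengths, beside 64317845 reads of these tags.

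For 3 of the 4 first bases the groups did not overlap. T began 25.04%, 24.4% and 29.7% of member reads in NAFLD and 32.1%, 34.8% and 39.0% in normal libraries. G began 39.0%, 39.0% and 36.0% and 35.4%, 34.6% and 29.8%. C began 20.03%, 21.4% and 20.003% and 16.9%, 16.4% and 16.02%. A began 14.2% to 15.96% and 14.2% to 15.6%, with overlap. The exact permutation p was 0.1 for T, G and C and 0.7 for A, with adjusted p = 0.133 and 0.7 over the 4 bases. The directions for T, G and C held within each substitution set, with C higher in NAFLD by 4.26 percentage points in the high set and 3.57 in the low set. The lower T share moved together with the lower miRNA share of the members, and how much of the former it makes up was not tested.

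First bases differed by parent. 28S and 18S rRNA tags began with G for 45.3% and 47.5% of their reads. Those of 5.8S rRNA began with G for 46.6% and with C for 33.2%. 5S rRNA tags began with C for 48.6% and with T for 40.0%, and none began with A. tRNA tags were divided between G with 43.9% and T with 43.5%.

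Lengths fell off from 26 nt, the shortest length the member rule allows. Shorter reads with the same starts are not counted, so a peak at 26 nt is a peak within the rule only. Of the 1782 groups, 1241 had most reads at 26 nt, 395 at 27 nt, 130 at 28 nt, 13 at 29 nt and 3 at 30 nt. Reads of 26 nt made up 56.6%, 59.1% and 52.2% of member reads in NAFLD and 70.8%, 59.5% and 71.1% in normal libraries, with normal 2 alone close to the NAFLD libraries. Reads of 28 nt made up 11.2%, 9.93% and 14.2% and 5.0001%, 10.6% and 4.83%, which overlap. The exact permutation p was 0.1 at 26 and 27 nt and 0.2 to 0.3 at 28 to 30 nt, with adjusted p = 0.25 to 0.3 over the 5 lengths. By level, the NAFLD to normal ratio was 2.30-fold at 26 nt, 3.02-fold at 27 nt, 4.02-fold at 28 nt, 5.20-fold at 29 nt and 7.60-fold at 30 nt. Without normal 2 these ratios were 2.90, 4.53, 8.85, 14.4 and 16.9. Within the high substitution set they were 1.54, 1.71, 1.90, 2.51 and 3.52, and within the low set 3.19, 5.03, 9.06, 11.5 and 17.8.

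The length profile also depended on the parent. Members with a miRNA start lay nearly all at the lower edge of the rule, with 86.5% of reads at 26 nt and 12.96% at 27 nt. 28S rRNA tags had 51.7% at 26 nt, 30.5% at 27 nt and 12.8% at 28 nt. tRNA tags peaked at 27 nt with 41.4% of reads. The gel selection ended at 30 nt, so longer fragments of these RNAs are outside the range.

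Groups were compared one by one with edgeR's quasi-likelihood test on counts, with library size set to total clean reads and the whole table of tags collapsed in the same way. Of 11308 sequence groups tested over all lengths, 0 (0%) had a Benjamini-Hochberg adjusted p under 0.05, and of the 1231 member groups that entered the test 0 passed; the smallest adjusted p was 0.471. At an unadjusted p under 0.05, 417 member groups were higher in NAFLD and 0 lower, beside 10.2% of all groups tested that were higher. With TMM factors 54 member groups were higher and 0 lower, beside 2.39% of all groups higher and 1.07% lower, and with DESeq2 92 were higher and 2 lower, beside 3.72% and 3.36%. DESeq2 called 7 member groups, all higher, beside 0.478% of all groups higher. With the substitution set as a covariate, edgeR called 235 member groups, all higher, beside 8.17% of all groups higher. The other member groups had too few reads in too many libraries for the test, and a group that entered through its NAFLD reads alone could scarcely be lower. By single tag, 0 of 2238 members tested by edgeR passed the adjusted threshold, DESeq2 called 6, beside 0.0923% of all tags tested, and 707 were higher at an unadjusted p under 0.05, beside 9.48% of all tags.

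Over all 1782 member groups, without the filter of the test, the mean TPM was higher in NAFLD in 1772. Members needed 30 reads summed over the libraries, and NAFLD libraries held more member reads. Entry by this rule therefore favours groups that are higher in NAFLD. All 3 NAFLD libraries stood above all 3 normal libraries in 918 groups, 51.5% of them, and below in 0, beside 20.8% above among the 18467 sequence groups of all lengths with 30 or more reads. The median ratio was 3.14-fold for member groups and 2.40-fold for all. Of the other groups of 26 to 30 nt, mostly those with a CCA end or of rarer tags, 47.9% did not overlap, and of the groups under 26 nt 12.8%. These shares were set side by side, and the difference between them was not tested. These values depend on the scale. By total clean reads the median log2 fold change over all groups tested was 1.13, and edgeR's TMM factors put it at 0.27 and DESeq2's size factors at 0.16. Member groups that were tested had medians of 1.59, 0.67 and 0.55 on the same 3 scales.

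By parent, 53.1% of the 28S rRNA groups, 54.3% of the 18S rRNA groups, 48.2% of the 5.8S rRNA groups and 53.1% of the unassigned groups lay above all normal libraries in all NAFLD libraries. For cytosolic tRNA the share was 35.2% and for miRNA starts 22.0%, near the 20.8% of all groups. The parents differed in tags 1 substitution away from a more abundant tag, described below as copies. These were 199 of the 363 miRNA tags and 63 of the 165 tRNA tags, beside 352 of the 1637 28S rRNA tags. How far copies bear on the shares by parent was not tested.

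The 3′ end of 5.8S rRNA gave the most abundant rRNA group. The group 5.8S rRNA 1 had 870.4, 489.7 and 335.8 TPM in NAFLD and 5.48, 132.3 and 15.6 TPM in normal libraries. All NAFLD libraries were above all normal libraries, but the ratio was 82.7-fold within the low set and 3.12-fold within the high set. The log2 fold change by edgeR was 3.47 ± 1.26 (SE), with an adjusted p of 0.471, and an adjusted p of 0.0389 with the substitution set as covariate. Its stretch held 16 start sequences, and 96.5% of the reads ended at the same base, after ctgagcgtcgct. Starts and ends are counted here and below as different sequences, so a copy with 1 substitution counts again. They are not counts of positions. Reads of 26 nt made up 98.9% of the group.

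The 5′ end of the same molecule gave 5.8S rRNA 2, at 308.6, 311.5 and 275.6 TPM and 34.1, 128.6 and 54.5 TPM. Here the NAFLD libraries lay close together and the ratio was 4.12-fold (log2 fold change by edgeR 2.04 ± 0.57 (SE), adjusted p = 0.471, and 0.0256 with the substitution set). In its stretch the leading of 20 start sequences took 60.3% of the reads and the leading of 16 end sequences 53.0%. The ratio of the 3′-end stretch, 10.9-fold, was above that of the 5′-end stretch, 3.63-fold, and the difference between them was not tested.

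The 3′ end of 18S rRNA was also the common end of many tags. Its stretch of 40 tags held 29 start sequences, copies included, and 94.4% of its reads ended in gaaggatcatta, the 3′ end of the mature molecule. 18S rRNA 1, of 27 nt in 99.4% of its reads, had 401.8, 241.7 and 175.3 TPM in NAFLD and 60.3, 118.7 and 73.8 TPM in normal libraries (log2 fold change by edgeR 1.70 ± 0.49 (SE), adjusted p = 0.471, and 0.0389 with the substitution set). 18S rRNA 2, which starts 1 base later and ends at the same base, had 376.3, 173.7 and 111.7 TPM and 110.0, 77.5 and 91.0 TPM. Its lowest NAFLD library lay only just above its highest normal library.

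Inside the rRNAs the ends were spread in some stretches and less so in others. For example, the leading end took 58.9% of the 13484 reads of a 28S rRNA stretch. In a smaller 28S rRNA stretch it took 44.7% of 3627 reads. The stretch of 28S rRNA 1 had 264 tags with 100 start sequences and 68 end sequences, and its leading end took 15.3% of 88904 reads. Neighbouring groups here are shifts of 1 base along the same sequence, so they are not independent of each other. 28S rRNA 1 had 443.1, 217.2 and 256.7 TPM in NAFLD and 68.3, 181.9 and 84.2 TPM in normal libraries, and 28S rRNA 2, which starts 1 base earlier, had 416.7, 159.3 and 191.5 TPM and 81.0, 134.3 and 82.4 TPM. The whole stretch was 2.39-fold higher in NAFLD without overlap, at 1567 to 2118 TPM and 494.2 to 1147 TPM.

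A second 28S rRNA stretch, that of 28S rRNA 4, had 232 tags with 92 start sequences and 60 end sequences and a GC content of 82.9%. It summed to 1928, 1541 and 1844 TPM in NAFLD and 622.9, 1046 and 343.4 TPM in normal libraries. 28S rRNA 4 itself was 3.48-fold higher, at 226.8 to 291.4 TPM and 21.3 to 147.8 TPM. By contrast 28S rRNA 6, which starts within the same sequence, was 1.71-fold higher with overlap, at 104.0 to 187.2 TPM and 51.1 to 114.1 TPM. Its direction turned to -0.04 on the log2 scale with TMM factors and -0.14 with DESeq2.

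The smallest unadjusted p among the members belonged to 3 groups of 28S rRNA of low level. They are shown with capitals for the first 18 bases.
28S rRNA 8: CGGCGGCGACTCTGGACGcgagccgg
28S rRNA 9: AACGGCGAGTGAACAGGGaagagccc
28S rRNA 10: GGGGCCCAAGTCCTTCTGatcgaggcc
28S rRNA 8 had 26.4, 49.9 and 20.2 TPM in NAFLD and 4.13, 3.54 and 2.53 TPM in normal libraries, and its ratio was alike within the substitution sets, 9.91-fold and 7.92-fold. By edgeR its log2 fold change was 3.24 ± 0.57 (SE), adjusted p = 0.471, and the adjusted p was 0.0134 with DESeq2. 28S rRNA 9 had 11.9, 11.1 and 5.67 TPM and 0.591, 1.10 and 0.589 TPM. 28S rRNA 10 had 5.86, 4.17 and 3.89 TPM and 0.169, 0.421 and 0.337 TPM. In 28S rRNA 8 normal 2 did not stand above the other normal libraries.

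The remaining 18S rRNA groups among the 20 most abundant differed less. 18S rRNA 3 had 179.6, 109.5 and 129.4 TPM in NAFLD and 80.3, 72.1 and 51.3 TPM in normal libraries, a 2.05-fold ratio. 18S rRNA 4 was 1.90-fold higher, at 115.8 to 143.1 TPM and 37.6 to 81.1 TPM. 18S rRNA 5 overlapped, at 86.9 to 173.0 TPM and 48.4 to 94.5 TPM. The values of 18S rRNA 4 and 5 turned to -0.01 and -0.11 on the log2 scale with DESeq2.

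The 5S rRNA group shown, 5S rRNA 1, had 45.4, 35.1 and 62.2 TPM in NAFLD and 1.43, 29.8 and 4.55 TPM in normal libraries. Of the normal libraries, normal 2 came nearest to the NAFLD libraries. The Y RNA group had 2.41, 1.45 and 7.20 TPM and 0.506, 1.68 and 1.09 TPM, and 55.6% of its reads had 30 nt.

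Some tRNA groups were 5′ starts that the rule did not exclude. The group cytosolic tRNA 2, the 5′ start of tRNA Ala, had 218.4, 48.8 and 213.0 TPM in NAFLD and 25.9, 9.94 and 3.20 TPM in normal libraries. It was the one tRNA start among the 20 most abundant groups without overlap, and normal 2 was not its highest normal library. Its log2 fold change by edgeR was 3.62 ± 1.00 (SE), with an adjusted p of 0.471, and of 0.0260 with the substitution set. The ratio was 13.2-fold within the high set and 15.01-fold within the low set. In its stretch 79.2% of reads used the leading start, while the leading of 30 end sequences took 23.4%.

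Other tRNA members looked like tRNA 5′ starts that had lost bases, those of Glu-CTC and Gly-GCC, which the rule excludes when intact, and that of Pro, which it does not. Capitals mark the 2 bases that flank the gap. The placement of a gap within a repeat cannot be told apart, and the earliest is shown.
Glu-CTC lacking 1 base: tcccTGtggtctagtggttaggattcg
Glu-CTC lacking 3 bases: tccCTggtctagtggttaggattcggcg
Pro lacking 2 bases: ggcTTtggtctaggggtatgattctc
Gly-GCC lacking 1 base: gcatTGtggttcagtggtagaattct
The 2 forms of Glu-CTC together outnumbered the intact start. The form lacking 1 base had 7461 reads and that lacking 3 bases 4604, beside 3956 reads of tags of 26 nt or more with the intact start and no CCA end.

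The form of Glu-CTC lacking 1 base had 288.2, 46.7 and 163.0 TPM in NAFLD and 17.5, 97.3 and 23.7 TPM in normal libraries, with overlap. The form lacking 3 bases had 172.5, 61.6 and 99.7 TPM and 3.12, 55.8 and 0.168 TPM, without overlap. The intact start had 155.5, 16.2 and 64.3 TPM and 6.83, 33.7 and 15.7 TPM. All 3 were highest in NAFLD 1, and in each of them normal 2 was the highest normal library. The Pro form had 1962 reads, beside 2370 of its intact start, and 24.4 to 49.7 TPM in NAFLD and 1.52 to 40.4 TPM in normal libraries. The Gly-GCC form was rare, with 347 reads beside 2436. Whether the missing bases arose in the cell, in reverse transcription or in other genes of the same tRNA was not tested.

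A few tRNA 3′ fragments stayed in because they stopped 1 base short of the CCA end. Capitals mark the last 2 bases.
tRNA 3′ fragment: agggttcaggtccctgttcgggcgCC
The 12 tags of the stretch shown that end so had 3090 reads, whereas the same tags with 1 more A had 108075 reads. Of both forms together, the shorter made up 2.69% in NAFLD and 4.55% in normal libraries. It had 192.9, 22.5 and 28.7 TPM in NAFLD and 2.70, 10.02 and 8.25 TPM in normal libraries, and NAFLD 1 alone carried most of its reads. Further stretches with such tags were rarer. In one, the shorter form had 351 reads and made up 4.27% in NAFLD and 15.4% in normal libraries. In another it had 215 reads and made up 1.79% and 4.86%.

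Tags with a miRNA start were long by added bases. Of 363 such tags, 285 began with the first 18 bases of a mature miRNA, and for 209 of these at least 20 bases matched the hairpin. The rest were the tags of let-7b-5p, miR-378a-3p and miR-181b-5p, with 35712, 5330 and 147 reads. They had no such match among the hairpins used and are left out of the tail values below. Of the 209, the number wholly within the hairpin was 1, the miR-451-5p tag shown above, whose miRNA is processed by Ago2 without Dicer. The other 208 ended in bases past the match to the hairpin, and 44 of them had a tail of T only. Weighted by reads, T made up 73.5% to 75.2% of the tail bases in NAFLD and 71.5% to 73.3% in normal libraries, and A 23.5% to 25.1% and 25.3% to 26.7%. C made up 0.299% to 0.428% over the 6 libraries and G 0.964% to 1.34%. Tails of T only were on 46.3% to 47.7% of these reads in NAFLD and 43.8% to 47.0% in normal libraries, which overlap. Tail T and A shares did not overlap between the groups (exact permutation test, p = 0.1 each), with a difference of 1.69 percentage points for T.

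The most abundant miRNA groups had lower ratios than most of the rRNA groups named, from 1.47-fold to 2.04-fold. The miR-122-5p start had 634.2, 755.2 and 1547 TPM as long tags in NAFLD and 393.5, 1040 and 530.1 TPM in normal libraries. The let-7b-5p start had 516.3, 541.8 and 744.7 TPM and 184.5, 657.6 and 383.9 TPM. The start shared by let-7a-5p and let-7c-5p had 193.2, 204.4 and 379.8 TPM and 70.7, 187.4 and 123.0 TPM, and that of miR-192-5p 253.5, 124.1 and 227.4 TPM and 112.1, 113.1 and 148.3 TPM. The start of let-7a-5p and let-7c-5p was the one of these 4 without overlap, 2.04-fold higher (log2 fold change by edgeR 1.03 ± 0.51 (SE), adjusted p = 0.556). For miR-122-5p, let-7b-5p and miR-192-5p the direction turned with TMM factors, to -0.23, -0.35 and -0.17 on the log2 scale, and with DESeq2.

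Long tags were a small part of the most abundant miRNAs and a larger part of some others. They made up 0.149%, 0.171% and 0.348% of all reads with the miR-122-5p start in NAFLD and 0.0727%, 0.185% and 0.0920% in normal libraries. For let-7b-5p these shares were 1.65%, 1.73% and 2.46% and 0.684%, 2.14% and 1.11%. For miR-192-5p they were 0.894% to 1.61% and 0.564% to 1.13%. All 3 overlapped (exact permutation test, p = 0.3 each), with normal 2 near or above the lower NAFLD libraries. Among the less abundant miRNAs, miR-378a-3p was 2.55-fold higher without overlap, at 75.1 to 160.1 TPM and 21.3 to 60.4 TPM. The long tags of miR-30a-5p were at 7.65 to 25.3 TPM and 7.58 to 19.6 TPM. The long share was 10.8% in NAFLD and 5.89% in normal libraries for miR-378a-3p. For miR-30a-5p it was 7.25% and 4.12%. It was 19.8% and 12.8% for miR-146b-5p, whose 1 long tag had 49 reads, but 0.0120% and 0.00659% for let-7f-5p.

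The unassigned members were a mixture. The pair of unassigned stretches with most reads was rich in G and C. The leading one had 109 tags in 47 groups with a GC content of 80.9%, and the next 31 tags in 13 groups with 73.1%. Their leading tags are shown in lower case.
unassigned stretch A: cccggccgtcgccggcagtcggaacg
unassigned stretch B: gttcggggttctcctccgcgtcggcg
Stretch A summed to 415.6, 571.7 and 458.1 TPM in NAFLD and 53.2, 183.2 and 58.4 TPM in normal libraries, a 4.90-fold ratio without overlap. Stretch B summed to 144.6, 83.9 and 234.5 TPM and 8.44, 82.1 and 14.1 TPM, where normal 2 lay just below the lowest NAFLD library.

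A small number resembled C/D box snoRNAs, guides of rRNA methylation that carry the box C letters TGATGA near their 5′ end. On the strand of the reads, TGATGA lay within bases 3 to 13 of 30 members, all of them unassigned, in 18 groups. That is 0.820% of members and 5.22% of the unassigned tags, beside 0.485% of all tags of 26 to 30 nt. Capitals mark the motif.
unassigned 1: ttactTGATGAaagtaaaagatctgatg
box 2: aagcaaTGATGAcagattggatctgact
box 3: gaaaaTGATGAttggagcttgcatgatc
The group unassigned 1 had 234.7, 29.8 and 72.5 TPM in NAFLD and 6.58, 58.9 and 12.04 TPM in normal libraries, so that normal 2 exceeded NAFLD 2. All 30 tags summed to 290.7, 61.8 and 141.9 TPM and 17.3, 102.5 and 27.1 TPM, a ratio of 13.1-fold within the low set and 0.993-fold within the high set. A match of these letters is a description and not a snoRNA call.

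Matches to promoter sequence were few. Of the 33469 RefSeq windows around transcription starts, on either strand, some held 122 members whole, of which 7 were unassigned. The matched members with most reads were of 5.8S and 18S rRNA. Their windows were those of LOC134486533 for 5.8S rRNA and of Rn45sl1 and Rn45sl2 for 18S rRNA. These windows thus hold rRNA sequence, and the matches do not show that the tags come from promoters.

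Few groups were lower in NAFLD. The 3 with the smallest unadjusted p were unassigned 2, unassigned 3 and 28S rRNA 11, with 110, 77 and 55 reads. Unassigned 2 had 1.81, 0.340 and 1.27 TPM in NAFLD and 1.43, 2.02 and 2.44 TPM in normal libraries (log2 fold change by edgeR -0.78 ± 0.76 (SE), adjusted p = 0.755). Both others had an unadjusted p of 0.832 and 0.825 by edgeR, and their direction changed when a single library was left out.

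Many members were near copies of more abundant tags. Of the 3657 members, 877 differed by 1 substitution from a tag of the same length with at least 5 times as many reads, and in 405 of these an A had become C within the first 20 bases. These 405 tags took 8.03%, 7.97% and 8.15% of member reads in NAFLD 2, NAFLD 3 and normal 2, and 0.00521%, 0.00180% and 0.00379% in NAFLD 1, normal 1 and normal 3. Of the 670 members with 0 reads in all 3 libraries of the low set, 395 were A-to-C copies. By level the 405 tags had 1228 and 1352 TPM in NAFLD 2 and NAFLD 3, 794.6 TPM in normal 2 and at most 0.948 TPM in the low set, a ratio of 1.62-fold within the high set. Without copies, 899 of 1395 groups, 64.4%, lay above in all NAFLD libraries, and 79 had 0 reads in the low set. With copies these were 918 of 1782 groups, 51.5%, and 367. A group without reads in the low set cannot lie above in all NAFLD libraries, so leaving such groups out raises the share. The share over all groups without copies is not given, and the 20.8% above includes copies. Without copies, the members' share of clean reads was 1.49% ± 0.220 (SD, n = 3) and 0.557% ± 0.220 (SD, n = 3), a 2.68-fold ratio.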

How the data were processed

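Small RNA of 18 to 30 nt from 3 NAFLD and 3 normal rat livers was analysed. The authors removed low quality reads, reads with 5′ primer, without 3′ primer or insert, with poly A or under 18 nt, and deposited the count of reads of each remaining tag. These counts carry no normalization and no filter on genome matches. The members, lists and anchors were chosen with earlier results of these data known.

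TPM was computed as count divided by clean reads, times 1000000. Totals of 11601058 to 11880695 reads make counting error small beside the spread between libraries, and amplified reads are not independent molecules. Library values were compared by two-sided exact permutation tests on means, for which the smallest p is 0.1. Sequence groups with 15 or more reads were tested in R 4.3.3 with edgeR 4.0.16 (glmQLFTest, filterByExpr, clean reads as library size, Benjamini-Hochberg adjustment, threshold 0.05), with DESeq2 1.42.0 as an alternative. SE is the log2 fold change over the square root of F. Simulated counts of known change served to test the script. Other steps used Python 3.11.15, pandas 2.3.3, scipy 1.17.1 and networkx 3.6.1.

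Named groups are the 20 with the highest mean TPM, up to 5 past the threshold in each direction or else the 3 with the smallest unadjusted p, and the leading group of each class. The members of 1 parent class are counted in all totals but are not reported here. Groups, tags or features outside this rule, such as the gapped tRNA starts, the box C tags and the unassigned stretches, were chosen after their values were seen. Hairpins and mature miRNAs came from RefSeq, with 419 and 724 entries.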

Additional observations from a re-analysis of the deposited data

How the results depend on the processing

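Alternatives for parent classes and for groups without copies were chosen after the data were seen. Replicate numbers are shared by the labels, and deviations of same-numbered libraries correlated at r = 0.72, 0.696 and -0.542 over 30360 groups. Pairs of unlike number within a substitution set correlated at 0.661 (NAFLD 1 with normal 3) and 0.764 (NAFLD 3 with normal 2). All pairs across the sets lay at -0.849 to -0.542, so the sign of r followed the set and not the number. With the replicate block, edgeR called 0 member groups, with 314 higher at an unadjusted p under 0.05 (7.74% of all groups), and 0 member tags, with 542 (8.17% of all tags). Adjusted calls of member groups, 0 in the test reported, were 7 with DESeq2, 235 with the substitution set as covariate and 2 where every library had to hold 10 reads (0.387% of all groups), and of tags 6 with DESeq2 and 66 with the covariate (0.0923% and 0.959% of all tags, counting those higher). Member groups higher at an unadjusted p under 0.05, 417 in the test reported, numbered 54 with TMM factors, 92 with DESeq2, 696 with the covariate and 264 at a member minimum of 100 reads, beside 2.39%, 3.72%, 32.1% and 11.2% of all groups and 10.2% in the test reported. Leaving out 1 library gave 117 to 720, with 720 without normal 2, 117 without normal 3, 171 without normal 1, 175 without NAFLD 1 and 181 without NAFLD 2, beside 3.11% to 23.6% of all groups. For tags, 707 became 166 with TMM factors, 191 with DESeq2, 1187 with the covariate and 299 where every library had to hold 10 reads, beside 2.62%, 2.87%, 26.9% and 14.6% of all tags and 9.48% in the test reported, and 295 to 1412 without 1 library, with 1412 without normal 2, 295 without normal 3, 446 without normal 1, 392 without NAFLD 1 and 372 without NAFLD 2, beside 3.39% to 20.9% of all tags. Leaving out 1 library gave 0 adjusted calls throughout.

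The members' share of clean reads and of long reads, the C, G and T shares and the length shares kept their direction under each alternative run, including member minimums of 10 and 100 reads. The A share as first base ranged from -0.239 to 0.628 percentage points. Leave-one-out differences ranged from -1.89 to 1.40 for 18S rRNA, -1.44 to 3.08 for 28S rRNA, -0.0113 to 0.117 for 5S rRNA and -0.00622 to 0.0103 for Y RNA. Within the high set the difference was 1.73 for 18S rRNA, -0.0301 for 5S rRNA and -0.00363 for copies of excluded starts, and within the low set -0.00447 for Y RNA. Log2 fold changes turned to -0.23, -0.35, -0.17, -0.0392, -0.0379 and -0.00786 with TMM for miRNA 1, 2 and 4 (the starts of miR-122-5p, let-7b-5p and miR-192-5p), 28S rRNA 6 and 7 and 18S rRNA 5, and to -0.34, -0.48, -0.27, -0.14, -0.15 and -0.11 with DESeq2, with -0.00879 for 18S rRNA 4. Without 1 library, unassigned 3 ranged from -0.58 to 0.51 and 28S rRNA 11 from -0.97 to 0.27. The shift of the median over all groups, given above, accompanies these turns.

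Limits are 3 rats a group, parents named from short anchors, 1 library that decides many normal means, and a split by substitution rate that leaves 1 library of 1 group in each set.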
